A study of Homo sapiens with 4 samples.

Results

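The genes described here are 9 feedback genes of the ERK pathway: the phosphatases DUSP4, DUSP5 and DUSP6, the inhibitors SPRY2, SPRY4, SPRED1 and SPRED2, and the outputs PHLDA1 and ETV5. They were chosen by gene symbol, and all 9 were found among the 27106 genes of the deposited table. Their RNA was read by sequencing in THP-1 cells, a human acute monocytic leukaemia line known to carry an MLL-AF9 fusion and an activating NRAS mutation. All cells had received an antisense oligonucleotide (ASO), a synthetic strand that binds a matching RNA to deplete it, and all column names give day 5. The ASO was non-targeting in 2 libraries (the control libraries) and was aimed at SGOL1-AS1, a long noncoding RNA, in the other two (the knockdown libraries). Both groups come from this 1 line, and no cells without an ASO were compared.

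The ERK pathway carries signals from growth factor and cytokine receptors through RAS, RAF and MEK to the kinase ERK. Active ERK enters the nucleus and switches on genes, some of which act back on the pathway. DUSP phosphatases remove the activating phosphates from ERK, while Sprouty and SPRED proteins act upstream, on RAS and RAF. Because they follow ERK activity, the RNAs of these genes are widely used as a readout of it, also in tumours with RAS mutations.

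Libraries held 41435922 to 51851314 gene reads, with 2 libraries per group. The control columns are named as their samples are. The remaining columns bear a code absent from the labels and were assigned to the knockdown by elimination, so every direction rests on that assignment. The target, SGO1-AS1 in current nomenclature, was low, at 23.0 and 19.8 normalized reads in controls and 11.5 and 19.4 after knockdown. Its log2 fold change of -0.48 was no call (adjusted p = 0.555 by limma), so it does not check the labels. Nothing in the labels says that libraries of a group are separate cultures, so p-values reflect only the spread between these libraries, which may be technical. Of 13 THP-1 monocytic markers all were in the table, with LYZ at 36975 to 40116 normalized reads and AZU1 at 2.88 to 6.59, and of the 12 tested 2 fell and 1 rose. Their summed level was 107775 to 113845 in the controls and 104452 to 110352 in the knockdown libraries. T lymphocyte markers summed to at most 16.0 normalized reads in any library, with 2 of 5 in the table. The B lymphocyte list, with 4 of 5, summed to 4743 and 4788 in the controls and 2913 and 3572 in the knockdown libraries, nearly all of it PAX5. Erythroid and megakaryocyte markers (1 of 6 in the table) summed to at most 45.6 and epithelial and fibroblast markers (3 of 7) to at most 331. Reads from the mitochondrial genome made up 0.953% and 0.989% of the control and 1.08% and 1.13% of the knockdown libraries. The part of these differences in the results below was not tested.

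None of the 9 feedback genes passed the test in either direction. With limma on log2(normalized count + 1), 0 of 9 were called lower and 0 higher at an adjusted p under 0.05, and 0 of 9 had an unadjusted p under 0.05, as 17.2% of all tested genes did. In 3 of the 15 alternatives 1 member had an unadjusted p under 0.05: ETV5 with equal totals, SPRED1 without control library 1 and SPRED2 without knockdown library 2, none past the adjusted threshold. On the recovered reads edgeR called 0 of 9, and DESeq2 0 of the 8 to which it gave an adjusted p. Over the whole table, 660 of 19398 tested genes (3.4%) were called lower and 165 (0.851%) higher, or 4.25% in either direction, so 0 of 9 is near the background. Lower calls were 80% of all calls here, 69.1% once library medians were equalised, 70.2% with quantile normalization and 55.5% once totals were equalised. The median log2 fold change (knockdown minus non-targeting) was -0.02 for the members and -0.01 for all genes tested, and the median size of the change, whatever its sign, was 0.09 against 0.11. In 3 members both knockdown values lay below both control values and in 2 they lay above, where 25.1% and 21.6% of all tested genes did so, or 46.7% in all. In 8 of 9 members the 95% interval of the change lay within 1.5-fold in both directions. It did so for 65.1% of all tested genes, low ones included. The widths rest mostly on the spread of other genes of like level, with 20.2 prior against 2 residual degrees of freedom. A p that misses the threshold does not show that the groups were equal. The intervals give the changes that these libraries leave possible under that model.

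**Figure D1:**
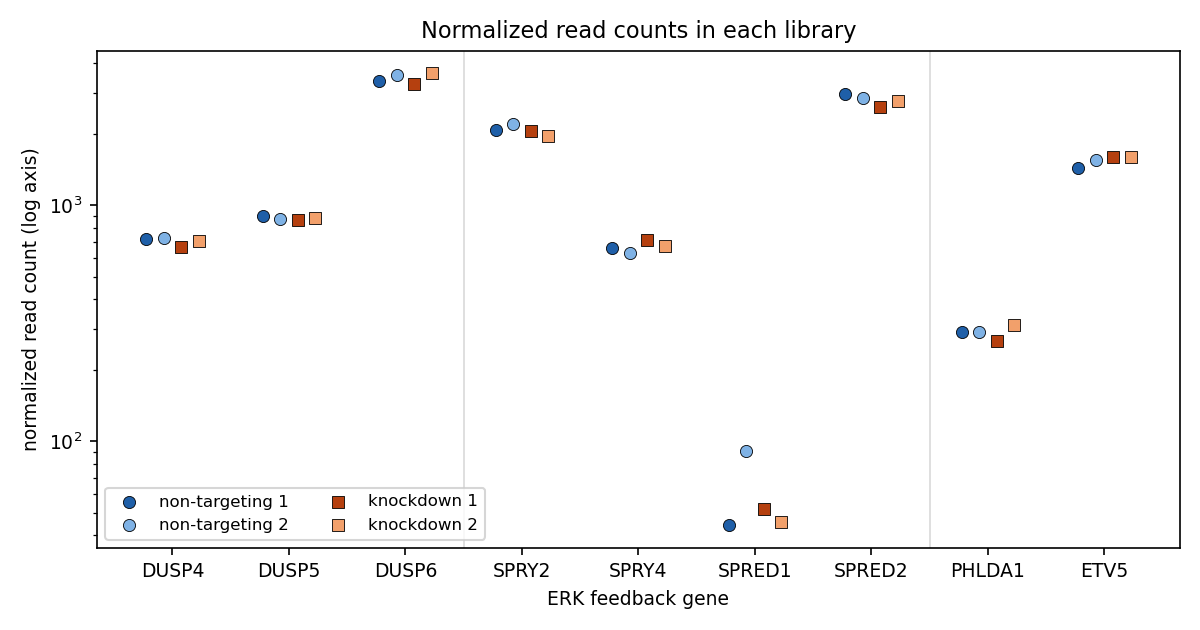
Normalized read count (log axis) of each feedback gene in the 2 non-targeting libraries (blue circles) and the 2 knockdown libraries (orange squares). The 4 points of each gene lie close together, except for SPRED1, where control library 2 stands at 91.3 and the other three between 44.2 and 51.8.

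Among the phosphatases, DUSP6 was the most abundant. DUSP6 is cytoplasmic and specific for ERK, and its gene (ENSG00000139318) lies on the minus strand of chromosome 12 from 89347232 to 89353271 (GRCh38). It stood at 3353 and 3570.3 normalized reads in the control libraries and at 3278 and 3630.2 in the knockdown libraries. The knockdown libraries were thus the lowest and the highest of the 4, and the groups overlapped. Group means were 3462 ± 153 and 3454 ± 249 (SD, n = 2), a log2 fold change of -0.0044 ± 0.06 (SE; limma, adjusted p = 0.981). The 95% interval ran from -8.61% to 8.75%, the narrowest of the 3 phosphatases. An antisense gene, AC024909.2, shares 2257 bases with DUSP6, exons included, and was at 39.5 to 47.9 normalized reads. Whether reads were counted by strand is not given in the sources used here, so reads from the overlap cannot be split between the 2 genes.

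DUSP5, a nuclear phosphatase specific for ERK (ENSG00000138166, chromosome 10, plus strand, 110497838 to 110511544), was the steadiest member across libraries. It stood at 899.8 and 873 normalized reads in the controls and 869.8 and 883 in the knockdown libraries. The highest library was 1.03 times the lowest, and the groups overlapped. The log2 fold change was -0.02 ± 0.08 (SE; limma, adjusted p = 0.942), with an interval from -0.17 to 0.14. DUSP4 is a nuclear phosphatase that acts on ERK and also on JNK and p38 (ENSG00000120875, chromosome 8, minus strand, 29333064 to 29350668). It stood at 723 and 730.1 in the controls and at 665 and 708 in the knockdown libraries. Both knockdown values lay below both control values, with the gap set mainly by knockdown library 1. The means of 727 ± 4.91 and 686 ± 30.9 (SD, n = 2) gave a log2 fold change of -0.08 ± 0.08 (SE; limma, adjusted p = 0.666), with an interval from -0.25 to 0.09.

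Per kilobase of exonic length (the union of all annotated exons), the 3 phosphatases kept the same order in every library. DUSP6 made up 62.0% to 64.3% of their summed level per kilobase, DUSP5 27.7% to 29.5% and DUSP4 8.01% to 8.53%. DUSP6 took 62.0% and 64.0% in the control libraries and 62.5% and 64.3% in the knockdown libraries, and DUSP4 took slightly less in both knockdown libraries (8.09% and 8.01%) than in both controls (8.53% and 8.35%). The summed level was 1168 and 1205 normalized reads per kilobase in the controls and 1132 and 1219 in the knockdown libraries, so the groups overlapped in the total as well.

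The Sprouty proteins are membrane-bound inhibitors that block the passage of receptor signals to RAS and RAF. SPRY2 (ENSG00000136158, chromosome 13, minus strand, 80335976 to 80340951) and SPRY4 (ENSG00000187678, chromosome 5, minus strand, 142310427 to 142326455) differed in sign. SPRY2 stood at 2088 and 2213 normalized reads in the controls and at 2072 and 1962 in the knockdown libraries. Its groups did not overlap, but knockdown library 1 lay close under the lower control library. The means of 2150.2 ± 88.4 and 2017 ± 78.3 (SD, n = 2) gave a log2 fold change of -0.09 ± 0.06 (SE; limma, adjusted p = 0.487), with an interval from -14.2% to 2.62%. SPRY4 stood at 659 and 628 in the controls and at 714 and 672 in the knockdown libraries. Both knockdown values were above both control values, and the log2 fold change was 0.11 ± 0.08 (SE; limma, adjusted p = 0.568), with an interval from -0.07 to 0.28. Neither sign is a call, and the difference between the 2 genes was not tested. SPRY4-AS1, which overlaps SPRY4 on the other strand by 1163 bases but not in its exons, was at 5.64 to 13.7 normalized reads.

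SPRED proteins bind the RAS inhibitor neurofibromin and bring it to the membrane. SPRED2 (ENSG00000198369, chromosome 2, minus strand, 65310851 to 65432637) had the smallest p of all 9 members. It stood at 2959.7 and 2859 normalized reads in the controls and at 2618 and 2779 in the knockdown libraries. Both knockdown values lay below both control values, and the means of 2909 ± 71.2 and 2699 ± 114 (SD, n = 2) were further apart than either SD. The log2 fold change was -0.11 ± 0.06 (SE; limma, adjusted p = 0.356), and its interval, from -14.8% to 0.877%, only just included no change. Of all tested genes, 21.5% had a smaller p.

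SPRED1 (ENSG00000166068, chromosome 15, plus strand, 38252326 to 38357249) was the least abundant and the least certain member. Its raw reads numbered 46 and 97 in controls and 54 and 40 after knockdown, or 44.2, 91.3, 51.8 and 45.6 after normalization. Control library 2 stood apart from the other three, and its exact 95% Poisson interval of 78.7 to 118 reads, which covers counting error only, did not meet those of the others, which reached at most 70.5. The group means were 67.7 ± 33.3 and 48.7 ± 4.36 (SD, n = 2), and the log2 fold change of -0.38 ± 0.27 (SE; limma, adjusted p = 0.51) was the lowest of the 9. It rested on that library: without control library 2 the log2 fold change was 0.14 (adjusted p = 0.938), and without control library 1 it was -0.90 (adjusted p = 0.077). The 95% interval of SPRED1, from -0.94 to 0.18, bounds the change far less closely than that of any other member. SPRED2 made up 98.0% to 99.1% of the summed SPRED1 and SPRED2 level per kilobase, so the sum of the 2 genes followed SPRED2.

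Upstream sequences are shown for SPRY2, SPRY4 and SPRED2, inhibitors whose groups did not overlap and whose upstream window is free of annotated untranslated exons over at least 100 bases. A RefSeq table (GRCh38.p14) held 300-base windows, from 250 bases before to 50 after a transcript start, for 6 of the 9 members, with 9 windows in all. The stretches before the start, on the minus strand, 5′ to 3′, are chr13:80341127-80341376 for SPRY2 (the outermost of 3 starts), chr5:142324248-142324497 for SPRY4 (inside the annotated span of the gene) and chr2:65432638-65432849 for SPRED2 (the outermost of 2 starts). The SPRED2 stretch stops 38 bases short of the start, at the first annotated untranslated base. It thus leaves out a GGAA that lies 11 bases before the start. Capitals mark GGAA on either strand, the core that ETS factors such as ETV5 and the ERK substrate ELK1 bind.
SPRY2: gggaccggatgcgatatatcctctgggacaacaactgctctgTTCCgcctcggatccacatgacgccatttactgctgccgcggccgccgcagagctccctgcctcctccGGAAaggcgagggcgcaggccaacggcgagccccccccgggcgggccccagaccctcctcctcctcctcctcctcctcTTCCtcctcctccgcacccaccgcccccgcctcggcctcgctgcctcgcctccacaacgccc
SPRY4: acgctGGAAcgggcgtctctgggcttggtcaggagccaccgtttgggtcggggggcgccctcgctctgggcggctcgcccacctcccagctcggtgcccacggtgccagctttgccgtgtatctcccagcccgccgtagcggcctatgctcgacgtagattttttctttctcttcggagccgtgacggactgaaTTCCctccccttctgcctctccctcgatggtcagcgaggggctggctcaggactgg
SPRED2: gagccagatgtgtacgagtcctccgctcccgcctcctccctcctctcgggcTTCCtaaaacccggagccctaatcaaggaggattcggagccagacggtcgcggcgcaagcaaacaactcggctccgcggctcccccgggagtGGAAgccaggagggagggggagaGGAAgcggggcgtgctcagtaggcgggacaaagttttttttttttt
The 3 stretches hold 3, 2 and 3 matches, but GGAA occurs in 95.5% of all 35116 of the 300-base windows, which also take in the 50 bases after the start. A longer ETS motif, CCGGAAG, was in 0 of the 9 member windows and in 10.3% of all windows. The serum response motif known as the CArG box was in 0 member windows and in 1.29% of all windows, and EGR's GCGTGGG in 0 and in 6.98%. AP-1's TGANTCA and the CRE motif TGACGTC each occurred in 1 of the 9 member windows, both of SPRED2 and not the same window, against 7.71% and 3.45% of all. All motifs were searched on both strands, and a match is a stretch of letters, not a bound site.

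The outputs in the list lie further along the pathway. ETV5 is an ETS transcription factor of the PEA3 family whose RNA depends on ERK in many cells (ENSG00000244405, chromosome 3, minus strand, 186046308 to 186110318). It stood at 1446 and 1561 normalized reads in the controls and at 1602.5 and 1610.4 in the knockdown libraries. Both knockdown values were above both control values and close to each other, and the spread lay in the non-targeting group. The means of 1504 ± 81.0 and 1606 ± 5.57 (SD, n = 2) gave a log2 fold change of 0.10 ± 0.07 (SE; limma, adjusted p = 0.494), with an interval from -2.78% to 17.6%. DGKG, a neighbour on the same strand that overlaps ETV5 exons, was at 1797 to 1859.5 normalized reads in the 4 libraries, and reads in the shared stretch cannot be assigned to 1 of them by strand. PHLDA1, a pleckstrin homology-like protein that is part of transcript signatures of MEK activity (ENSG00000139289, chromosome 12, minus strand, 76025447 to 76033932), stood at 292 and 292 in the controls and at 267 and 312 in the knockdown libraries. The knockdown values lay on either side of the control pair, and the log2 fold change was -0.02 ± 0.11 (SE; limma, adjusted p = 0.965), with an interval from -0.25 to 0.22. An antisense gene that shares exons with PHLDA1, AC011611.4, was at 6.59 to 18.2 normalized reads.

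**Figure D2:**
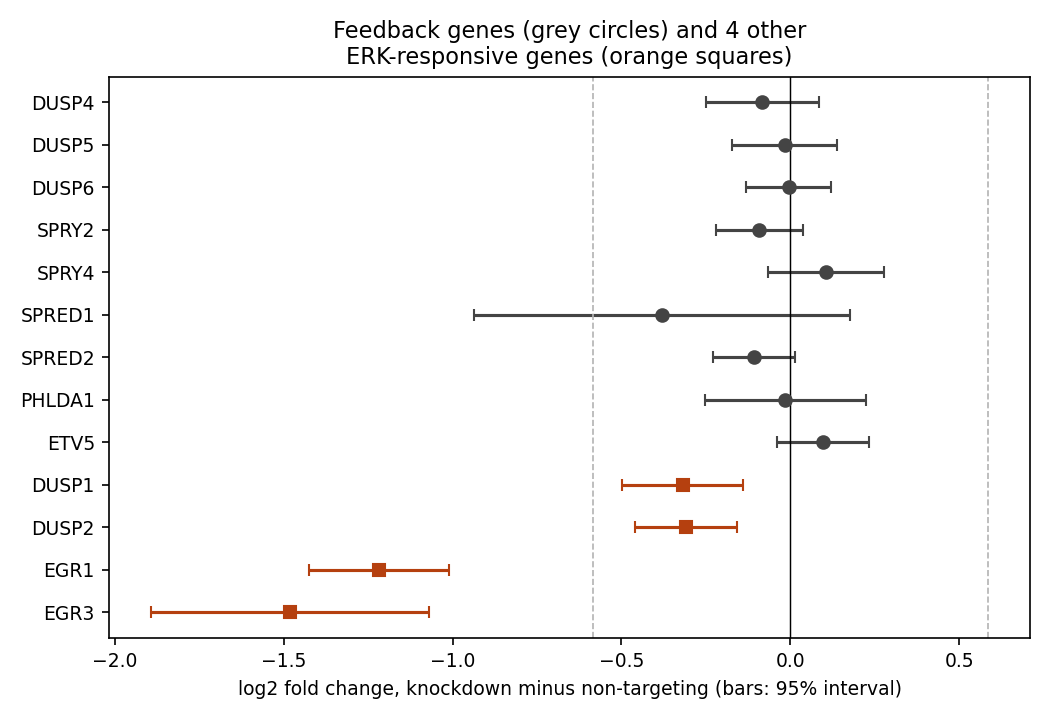
Log2 fold change, knockdown minus non-targeting, with its 95% interval by limma, for the 9 feedback genes (grey circles) and for DUSP1, DUSP2, EGR1 and EGR3 (orange squares). Dashed lines mark 1.5-fold in either direction, within which every feedback gene's interval lies except that of SPRED1.

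By level per kilobase the members differed far more from each other than between the groups. In the non-targeting libraries the mean was 747 normalized reads per kilobase for DUSP6, 708 for SPRY2, 564 for SPRED2, 339 for DUSP5, 259 for ETV5, 100.1 for DUSP4, 98.0 for SPRY4, 36.2 for PHLDA1 and 8.2 for SPRED1. The order in the knockdown means was the same except that SPRY4, at 105.5, was above DUSP4, at 94.6. DUSP4 and SPRY4 overlapped in the control libraries, at 99.6 and 100.6 for DUSP4 and 95.7 and 100.3 for SPRY4, and did not differ beyond their spread there. DUSP6 and SPRY2 overlapped only across libraries, since SPRY2 reached 728 where DUSP6 was at 724 in the other control library. Within each library DUSP6 was above SPRY2. It was at 724 against 687 and 771 against 728 in the controls. In the knockdown libraries it was at 708 against 682 and 784 against 646. Lengths come from all annotated exons, so a gene whose long isoforms are little used is understated on this scale.

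**Figure D3:**
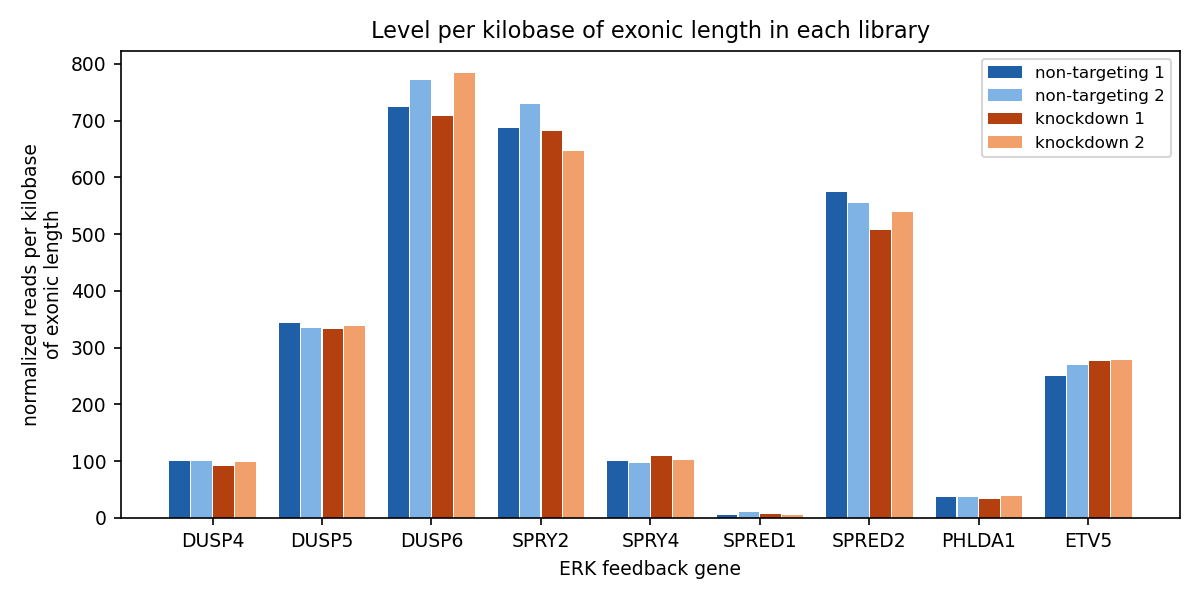
Normalized reads per kilobase of exonic length for each feedback gene in the 4 libraries (bars start at 0). DUSP6, SPRY2 and SPRED2 are the tallest in each library, from 508 to 784, and SPRED1 is the lowest, from 5.35 to 11.05.

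Relatives of the members in the same families held 2 called genes, both phosphatases, and neither call was firm. Of 11 other dual-specificity phosphatases 9 were in the table and 7 were tested, with a median log2 fold change of -0.17. By limma 2 were called lower and 0 higher, where 3.4% and 0.851% of all tested genes were. EdgeR called 1 lower and DESeq2 0, and 4 of the 7 had an unadjusted p under 0.05 by limma. DUSP2, a nuclear phosphatase induced in immune cells, fell from 1062 and 1055 normalized reads to 853 and 857, a log2 fold change of -0.31 ± 0.07 (SE; limma, adjusted p = 0.0154). DUSP1, a nuclear phosphatase of p38, JNK and ERK that is made within minutes of stress or growth signals, fell from 1305 and 1385 to 959 and 1210.1, a log2 fold change of -0.32 ± 0.09 (SE; limma, adjusted p = 0.0336). The call was lost in 6 of 15 alternatives for DUSP2 and in 8 of 15 for DUSP1, with adjusted p of 0.0556 by edgeR for DUSP1 and 0.0655 by DESeq2 for DUSP2. Without knockdown library 1 DUSP1 stood at -0.15 (adjusted p = 0.342), and DUSP2 lost its call without either control library (adjusted p = 0.135 and 0.0909). The 5 that did not pass included DUSP9 at -0.21, DUSP7 at -0.17 and DUSP3 at 0.01. The other Sprouty and SPRED genes tested, SPRY1 at 0.14 and SPRED3 at -0.30, did not pass, nor did ETV4 at -0.10, ETV1 at -0.10 and PHLDA3 at -0.36. Of these 5, PHLDA3 had an unadjusted p under 0.05 by limma, and edgeR and DESeq2 called 0.

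Dividing one gene by another within a library removes the effect of scaling. The ratio of DUSP1 to DUSP6 was 0.389 and 0.388 in the controls and 0.293 and 0.333 in the knockdown libraries, and that of DUSP2 to DUSP6 was 0.317 and 0.295 against 0.260 and 0.236. Both ratios were lower in both knockdown libraries, by 0.32 and 0.30 on the log2 scale. By contrast the ratio of DUSP5 to DUSP6 was 0.268 and 0.244 against 0.265 and 0.243, nearly the same in the groups. These pairs were chosen after the values were seen, and 2 libraries against 2 cannot reach a p under 0.333 in a two-sided exact permutation test, the value that the DUSP1 and DUSP2 ratios gave and that the ratios of DUSP4, SPRED2 and ETV5 to DUSP6 gave too.

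Other ERK-driven outputs, many of them immediate early genes that also answer other signals, were lower where they passed. Of 24 tested, 10 fell and 0 rose by limma (8 and 0 by edgeR, 5 and 0 of the 20 given an adjusted p by DESeq2). Their median was -0.23, against -0.02 for the feedback genes, of which 0 of 9 passed in either direction. Over all genes 3.4% were called lower. By limma 13 of the 24 had an unadjusted p under 0.05, all of them lower, where 17.2% of all tested genes did. The list was chosen with earlier results of these data known, so its share of calls is a description and not a test. EGR1, a zinc finger transcription factor, fell from 2664 and 2324 normalized reads to 906 and 1260.2, a log2 fold change of -1.22 (limma, adjusted p = 1.02e-07) with an interval from -1.43 to -1.01. EGR3 was at -1.48, the AP-1 subunit JUNB at -0.44 and IER2, a nuclear immediate early protein, at -0.40, all called by limma. The EGR1 and EGR3 calls were lost with robust empirical Bayes (adjusted p = 0.174 and 0.122) at the same fold changes. In the main fit the intervals of EGR1 and EGR3 do not meet that of any feedback gene, the nearest bounds being -1.01 for EGR1 and -0.94 for SPRED1. With robust empirical Bayes the SE was 0.23 for EGR1 and 0.34 for EGR3, against 0.10 and 0.20. The separation is therefore stated for the main fit alone, and only as a description. EGR1 and EGR3 have the lowest fold changes of the list. In the main fit the intervals of JUNB (-0.56 to -0.33) and IER2 (-0.52 to -0.29) meet that of SPRED1. So do those of the other called outputs, some of which also meet those of DUSP4, SPRY2 and SPRED2. The 14 that did not pass included CCND1, a D cyclin that also depends on ERK, at 0.03. The list also holds the ERK substrate ELK1, so it is not made of outputs alone. Whether these genes and the feedback genes differ in their response was not tested.

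Few kinases and adaptors of the pathway passed the test. Of 33 tested genes of the RAS, RAF, MEK and ERK core, 1 fell and 0 rose, where 3.4% and 0.851% of all genes did. Log2 fold changes ran from -0.22 to 0.18, with a median of -0.04. By limma 6 had an unadjusted p under 0.05, 5 of them lower, where 17.2% of all tested genes did. ERK1 (MAPK3) was at -0.10, MEK1 (MAP2K1) at -0.01 and MEK2 (MAP2K2) at -0.19 (limma, adjusted p = 0.0533 for MEK2). The called gene was the scaffold adaptor GAB2, at -0.22 (limma, adjusted p = 0.0456), and its call was lost in 11 of 15 alternatives, among them edgeR (0.0656), DESeq2 (0.134) and the omission of either control library (0.419 and 0.0762) or knockdown library 1 (0.214). Of 24 negative regulators of RAS and ERK outside the feedback genes, 3 fell and 0 rose, beside the same 3.4% and 0.851%. By limma 9 of these 24 had an unadjusted p under 0.05, 7 of them lower, beside the same 17.2%. PTPN6, the phosphatase SHP-1 of blood cells, fell by 0.40 on the log2 scale, from 9153 and 8914 to 6552 and 7144 normalized reads (limma, adjusted p = 6.32e-05). DAB2IP, a RAS GTPase-activating protein, fell by 0.40, and DOK2, an adaptor that recruits such proteins, fell by 0.27. The calls of DAB2IP and DOK2 were each lost in 4 of 15 alternatives, for DAB2IP also by DESeq2 (adjusted p = 0.0626). Both were lost without control library 1, at log2 fold changes of -0.29 and -0.19.

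Upstream, 1 of 14 tested receptors fell and 0 rose, where 3.4% and 0.851% of all tested genes did. This was AXL, a receptor tyrosine kinase of the TAM family, which went from 18353 and 18537 to 10674 and 12949 normalized reads, a log2 fold change of -0.65 ± 0.06 (SE; limma, adjusted p = 1.07e-06). Of the 14 receptors, 4 had an unadjusted p under 0.05 by limma, 3 of them lower, where 17.2% of all tested genes did. In the JNK and p38 branch 0 of 17 passed in either direction by limma, edgeR or DESeq2. By each tool 3 had an unadjusted p under 0.05, all lower, near the 17.2% of all genes tested by limma, and the median was -0.05. In bulk RNA, fewer cells of a kind and less RNA per cell cannot be told apart, and this holds for each difference given here.

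**Figure D4:**
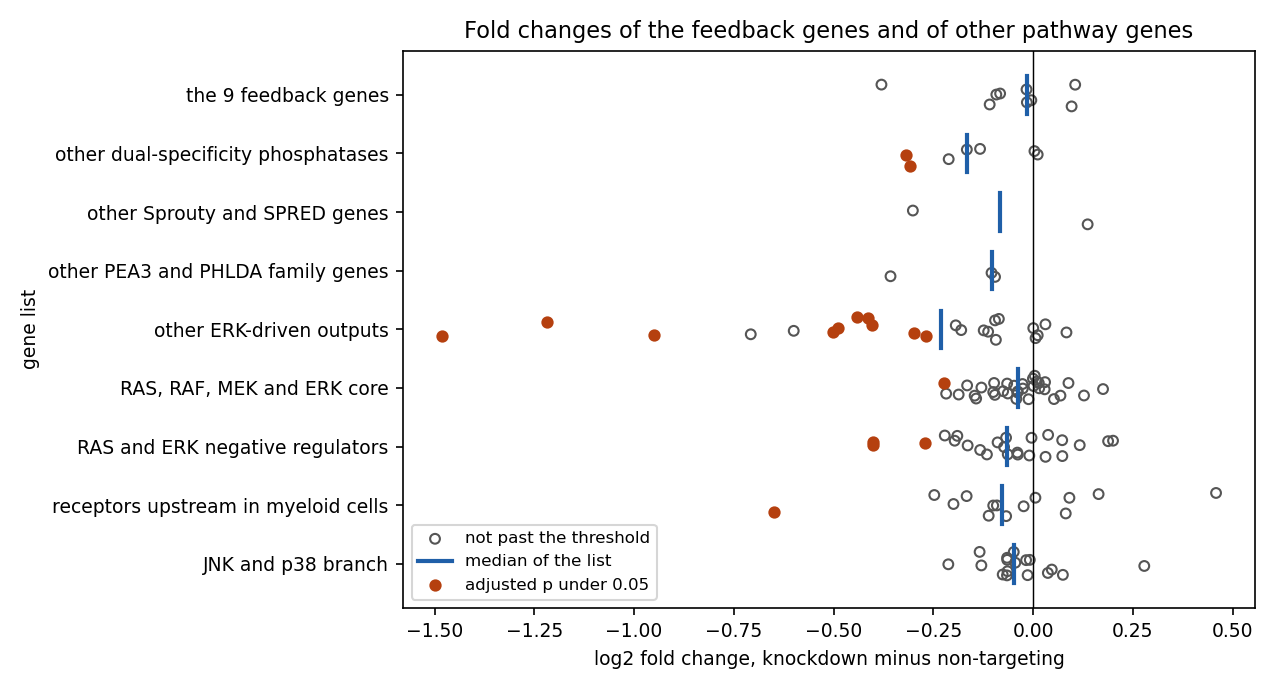
Log2 fold change of each tested gene (points) in the 9 feedback genes and in 8 lists of other pathway genes, with the median of each list as a blue bar. Filled orange points passed an adjusted p under 0.05: 10 of 24 among the other ERK-driven outputs and 0 of 9 among the feedback genes. The lists were chosen with earlier results of these data known, so the shares are a description.

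Averaged over the 9 members, the profile across the 4 libraries was nearly flat, at -0.06 and 0.06 in the controls and -0.07 and -0.04 in the knockdown libraries on the log2 scale, relative to the non-targeting mean. This mean profile owed much to SPRED1, in both groups. SPRED1 stood at -0.52 and 0.52 in the controls and at -0.29 and -0.47 in the knockdown libraries. Genes near the profile thus follow in large part a gene of 40 to 97 reads, not the 9 members alike. Among 14078 other genes with a symbol and a mean of at least 50, those at the smallest Euclidean distance from this profile over the 4 libraries were EML4 (distance 0.0098), PPP4R2 (0.0115), SLC20A1 (0.0127), TANGO6 (0.0141) and USP39 (0.0145). With 4 libraries many genes share such a profile, and the distances are given as a description.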

How the data were processed

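THP-1 total RNA (Qiagen RNeasy Plus Mini) was sequenced from NEBNext Ultra II libraries, per the labels' protocols. STAR 2.5.1b, DESeq2 (no version) and GRCh38 are named per the submitters' processing notes, with no role or order; how reads were counted, by which annotation and strand, is not given in the sources used here. Per gene, what the authors deposited is a normalized signal: reads over a size factor for each library. Of these values, 100% gave back whole reads (within 0.1 read). Every gene has at least 2 reads in knockdown library 1, so genes under that are not analysed here.

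On log2(value + 1), limma 3.58.1 (R 4.3.3; empirical Bayes, mean-variance trend) tested the 19398 genes with a mean of at least 10, all 9 members included, with Benjamini-Hochberg adjustment over all of them and a threshold of 0.05. Low genes change by more than fold changes on this scale show. Control libraries are the non-targeting ones, and knockdown libraries are numbered in column order. Counts of libraries in a group differed by a chi-square of 4.47 and 4.95 per degree of freedom, so none was a copy. Positions and exonic lengths come from GENCODE 29 (GRCh38). Named genes were the members, the target, up to 4 called genes with the smallest p per pathway list, overlapping antisense genes and the 5 nearest profiles; CCND1, DGKG, DUSP3, DUSP7, DUSP9, LYZ, AZU1, PAX5, the kinases and the members' uncalled relatives were named after their values were seen. Some genes are not reported here. The members and lists were chosen with earlier results of these data known. Alternatives were edgeR 4.0.16 (quasi-likelihood, TMM) and DESeq2 1.42.0 on the recovered reads, other filters, pseudocounts, scalings and empirical Bayes settings, and each library left out. The tests were also run on simulated counts. Their spread was drawn from a mean-variance trend, so that run could not check the trend itself.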

Additional observations from a re-analysis of the deposited data

How the results depend on the processing

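Under all 15 alternatives 0 of the 9 members were called, lower or higher, and 120 of the member values kept their sign. The lowest adjusted p of any member was 0.077, for SPRED1 without control library 1; DESeq2 gave SPRED1 no adjusted p. The 15 sign changes were all of uncalled values, and DUSP5, DUSP6 and PHLDA1 have no direction that holds across scalings. With the same median in every library DUSP5 stood at 0.00057, DUSP6 at 0.0126 and PHLDA1 at 0.0014; with quantile normalization DUSP5 stood at 0.0060 and DUSP6 at 0.0399; with the same total DUSP5 stood at 0.0409, DUSP6 at 0.0530 and PHLDA1 at 0.0416; DUSP6 was at 0.0052 by edgeR and 0.0046 by DESeq2. Leaving out 1 library gave ranges of -0.038 to 0.0053 for DUSP5, -0.078 to 0.069 for DUSP6, -0.90 to 0.14 for SPRED1 and -0.13 to 0.10 for PHLDA1. The other members kept their sign but moved by over 1.5 times, with ranges of -0.13 to -0.04 for DUSP4, -0.13 to -0.05 for SPRY2, 0.06 to 0.15 for SPRY4, -0.15 to -0.07 for SPRED2 and 0.04 to 0.15 for ETV5. A group reduced to 1 library borrows its spread from the other.

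Over all genes, the lower calls numbered 660 and the higher 165; they were 334 lower after quantile normalization, 293 lower with the same total, 290 higher with the same median, 379 and 66 by DESeq2, and 0 and 0 by limma with no mean-variance trend, where 2337 genes had an unadjusted p under 0.05; edgeR made 556 and 159 calls. With 1 library left out they ranged from 334 to 960 lower and from 87 to 309 higher. No mean-variance trend ended all 11 calls of the named genes outside the members, which were lower in every alternative run. DUSP1, DUSP2, DOK2 and GAB2 were not called with quantile normalization or equal totals, nor DAB2IP with equal totals. The cause was not tested. No paired analysis was possible because the knockdown columns carry replicate numbers that share only 1 with the non-targeting columns. Among the members depth was lowest for SPRED1, at 40 to 97 reads.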
